A study of Drosophila melanogaster with 24 samples.

Results

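Cytochrome P450 genes were examined in heads of individual male Drosophila melanogaster, the fruit fly, after training that suppresses courtship. Members were all genes of the RPKM table whose FlyBase symbol begins with Cyp and a digit, without Cyp4d21. RPKM is a read number scaled by gene length and library size. Of 17559 genes in the table, 85 met this rule. Cyp1 and Cyp40 are cyclophilins that share only the letters of the symbol, and they were set apart, which left 83 P450 members. Of these, 71 reached 1 RPKM in at least 6 flies and entered the tests with 10547 genes in all, and 12 did not.

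The training pairs a virgin male with a mated female who refuses him, and his courtship is afterwards reduced. A single pairing of 2 h made up 1X training, and 3X training was 3 such pairings spaced by 30 min, while the 1X mock and 3X mock flies spent the same schedules in training tubes with no female present. Every group held 6 flies, each fly gave 1 library, and heads were taken 1 h after the last session. Males had been housed singly and were trained at 5 days of age, and the labels name no mutation and no drug. The strain of the sequenced males is not given in the sources used here. A whole head holds brain, eyes, fat body, muscle and cuticle, so fewer cells of a type and less RNA per cell cannot be told apart.

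Cytochrome P450s are heme enzymes that insert an oxygen atom into fatty substrates, with electrons passed to them by a reductase. Insects use them to make and break down steroid hormones, to form hydrocarbons of the cuticle, and to detoxify plant compounds and insecticides. By sequence they fall into 4 clans. The CYP3 and CYP4 clans lie in the endoplasmic reticulum and hold most detoxification enzymes, the CYP2 clan is small and rich in developmental and hormone enzymes, and the mitochondrial clan draws its electrons from a ferredoxin.

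The libraries held 18929289 to 41403284 reads with a median of 34567406.5, as recovered from the RPKM values. Neuron, photoreceptor and glia markers were present in all groups, and all 5 accessory gland markers stayed below the filter. In 3X mock replicate 6 the summed level of 12 testis markers was 116 RPKM against at most 6.71 RPKM in any other fly. The fly 1X trained replicate 1 was the lowest of the 24 flies in 20 of the 71 tested members (28.2%) and the highest in 9 (12.7%). Over all tested genes it was lowest in 10.3% and highest in 13.6%. Its fat body markers summed to 592 RPKM, the lowest of all flies. That sum mainly follows 1 gene, Lsp2, with group means of 2243 to 6229 RPKM, against 279 to 385 RPKM for apolpp and 294 to 470 RPKM for plin1. The shallowest library was 1X trained replicate 4. Each count of members called is also given without these 3 flies, a choice made after the data were seen.

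Expression of the family in the head was concentrated in a few genes. The 3 highest members, Cyp313a1 with a mean of 480.2 RPKM over the 24 flies, Cyp6g1 with 448 RPKM and Cyp6d5 with 431 RPKM, made up 37.2% of the summed RPKM of the family. The 12 highest made up 68.6%. The other 9 of these 12 were Cyp6w1 (206 RPKM), Cyp9b2 (164 RPKM), Cyp28d1 (163 RPKM), Cyp9f2 (159 RPKM), Cyp4p1 (119 RPKM), Cyp12a4 (101 RPKM), Cyp4e2 (83.8 RPKM), Cyp4ac1 (81.1 RPKM) and Cyp6a8 (75.3 RPKM). In all, 9 members lay at 100 RPKM or more, 34 between 10 and 100 RPKM, 27 between 1 and 10 RPKM and 13 below 1 RPKM. The 1X groups had a summed family level of 3816.5 ± 317.7 RPKM (mock) and 3600.1 ± 592.6 RPKM (trained, SD, n = 6 each). The 3X groups had 3694 ± 525 RPKM (mock) and 3524 ± 394 RPKM (trained). These means lay closer together than 1 SD of any group.

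**Figure D1:**
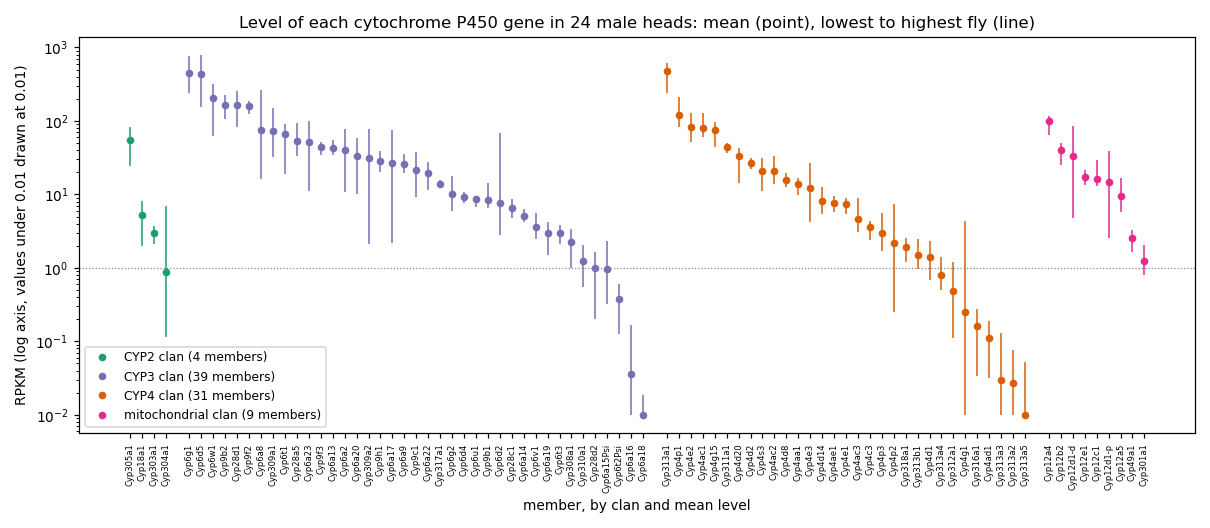
Level of each of the 83 members in single heads, with RPKM on a log axis and members ordered by mean within their clan. Points are means over 24 flies, lines run from the lowest to the highest fly, and the dotted line marks 1 RPKM. The CYP3 clan holds the most members and 6 of the 9 at 100 RPKM or more.

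The CYP3 clan, with 39 members of which 36 were tested, carried 62.6% of the summed RPKM. The CYP4 clan, with 31 members of which 23 were tested, carried 29.2%. All 9 members of the mitochondrial clan were tested and carried 6.45%, and the 4 members of the CYP2 clan carried 1.75%. Levels of members with known developmental roles were as follows. Cyp301a1, needed for normal cuticle formation, had a mean of 1.25 RPKM, and Cyp303a1, needed for the development of sensory bristles, had 2.94 RPKM. Cyp4g15, a relative of the hydrocarbon enzyme Cyp4g1 known from the nervous system, had 74.5 RPKM.

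Cyp4g1 makes cuticular hydrocarbons in the oenocytes, which line the abdomen. It was listed at 4.34 RPKM in 1X trained replicate 4 and at no more than 0.302 RPKM in the other 23 flies. The other untested members were Cyp304a1, Cyp313a4, Cyp312a1, Cyp6t2Psi, Cyp316a1, Cyp4ad1, Cyp6a16, Cyp313a3, Cyp313a2, Cyp313a5 and Cyp6a18, with means from 0.00136 to 0.870 RPKM. The least abundant member that passed the filter was Cyp6a15Psi at 0.978 RPKM, and the most abundant one that did not was Cyp304a1 at 0.870 RPKM. The latter reached 7.0 RPKM in 1X trained replicate 1 and at most 1.54 RPKM in any other fly.

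P450 genes are known to lie in clusters of duplicates, and 48 of the 83 members had another member within 20 kb, forming 17 arrays. The remaining 35 stood alone. Positions are those of the Ensembl annotation of the dm6 assembly. Chromosome arm 2R held 34 members, 3R 16, X 14, 2L 13 and 3L 6. The largest array lay at 2R:14871366-14903095 and held 8 genes, Cyp6a22, Cyp6a17, Cyp6a23, Cyp6a19, Cyp6a9, Cyp6a20, Cyp6a8 and Cyp317a1. Mean levels within it differed 24.9-fold, from 3.02 to 75.3 RPKM. Neighbours in the array of Cyp6g1, Cyp6g2 and Cyp6t3 differed 149.8-fold. In total 43 members overlap another annotated gene, and since the libraries kept no strand, reads from overlapping genes cannot be told apart.

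The first comparison asked which members differ 1 h after a single training session. Cyp18a1, Cyp6g1 and its neighbour Cyp6g2 were lower in 1X trained than in 1X mock heads, and Cyp6v1 was higher. These were 4 of the 71 tested members (5.63%) at a limma adjusted p below 0.05, against 4.94% of all 10547 tested genes. Of all tested genes 2.75% were called as higher and 2.19% as lower. The members' share is near this background, so the count is not a result about the family. An unadjusted p below 0.05 was seen for 14 members (19.7%), 3 higher and 11 lower, against 20.8% of all tested genes. The median change of the 71 members was -0.02 on the log2(RPKM + 1) scale, against 0.00 over all tested genes. No tested member changed by 1 or more on that scale, which understates the change of low genes.

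Cyp18a1 inactivates the moulting hormone 20-hydroxyecdysone, and lies beside Cyp308a1 on the X chromosome (X:18688538-18693042) without an overlapping gene. It ranged from 4.92 through a median of 5.88 to 6.78 RPKM in 1X mock heads. In 1X trained heads it ranged from 2.00 through 2.40 to 3.69 RPKM. All 6 trained flies therefore lay below all 6 mock flies. Its mean was 0.439 times that of the mock flies, and the log2 change was -0.95 (SE 0.15, limma adjusted p = 0.00075). The reads behind a single value numbered 197 to 786. Under all of the alternatives run, among them leaving out any fly, Cyp18a1 passed the same test, with adjusted p from 9.04e-05 to 0.00279.

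**Figure D2:**
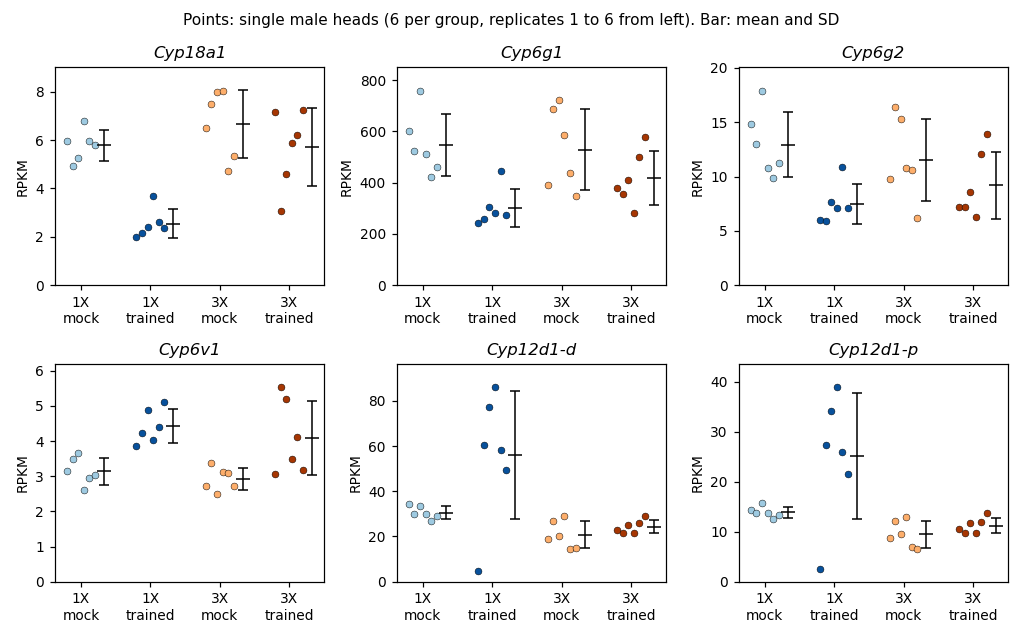
RPKM in single heads by group for the 4 members called after 1X training and for the 2 Cyp12d1 copies. Points are flies in order of replicate number, bars are mean and SD of 6 flies. All 6 1X trained values of Cyp18a1, at 2.00 to 3.69 RPKM, lie below the 1X mock values at 4.92 to 6.78 RPKM, and 1X trained replicate 1 lies at 4.76 RPKM of Cyp12d1-d.

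Cyp6g1, whose overexpression is known to make flies resistant to DDT and to imidacloprid, ranged from 420.9 through 516 to 758 RPKM in 1X mock heads. After 1X training it ranged from 242 through 277 to 447 RPKM. A single trained fly, replicate 5, reached into the mock range, and the other 5 lay below it. The log2 change was -0.86 (SE 0.20, limma adjusted p = 0.0133), which corresponds to 300.9 ± 74.7 against 546 ± 120 RPKM (SD, n = 6 each). Without 3X mock replicate 6 and 1X trained replicates 1 and 4 the change was -0.77 with a limma adjusted p of 0.0515.

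Cyp6g2 lies next to Cyp6g1 on the other strand (2R:12188338-12190377) and overlaps its end by annotation. It ranged from 9.83 through 12.1 to 17.9 RPKM in 1X mock and from 5.89 through 7.13 to 10.9 RPKM in 1X trained heads. The groups overlapped, and the fly that was highest among the trained, replicate 5, was the same as for Cyp6g1. The log2 change was -0.72 (SE 0.20, limma adjusted p = 0.0423), and the call was lost when any of 10 single flies was left out, with adjusted p up to 0.0971. How much of the Cyp6g2 signal came from reads of its far more abundant neighbour was not tested.

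Cyp6v1, a CYP3 clan gene that overlaps an antisense RNA, ranged from 2.61 through 3.09 to 3.66 RPKM in 1X mock heads. In 1X trained heads it lay between 3.85 and 5.11 RPKM, with a median of 4.32 RPKM. The groups did not overlap. The log2 change was 0.39 (SE 0.10, limma adjusted p = 0.0305), with adjusted p from 0.0147 to 0.0759 when single flies were left out. Among tested members Cyp18a1 and Cyp6v1 were those whose 1X groups did not overlap, a pattern shown by 3.89% of all tested genes.

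The 2 copies of Cyp12d1, mitochondrial P450s induced by phenobarbital and other foreign compounds, turned on 1 fly. Cyp12d1-d lay at 26.7 to 34.5 RPKM in 1X mock heads. In 1X trained heads replicate 1 was at 4.76 RPKM and the other 5 at 49.3 to 86.1 RPKM. So 5 trained flies lay above every mock fly and the other one below every fly of the series. With all flies the log2 change was 0.48 (SE 0.42, limma adjusted p = 0.560). Without 1X trained replicate 1 it was 1.07 (SE 0.16, limma adjusted p = 3.64e-04). Cyp12d1-p followed the same flies, from 2.55 RPKM in replicate 1 to 38.9 RPKM, and its change went from 0.50 (adjusted p = 0.474) to 1.01 (adjusted p = 4.14e-04). The RPKM of Cyp12d1-d was 1.87 to 2.40 times that of Cyp12d1-p in all 24 flies. Their recovered reads were closer, for example 4603 and 5031 in 1X trained replicate 3. The copies are near-identical in sequence, so how reads were split between them is uncertain and they are not separate evidence.

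In the same fly, 1X trained replicate 1, Cyp6d2 stood at 68.8 RPKM against 2.76 to 10.1 RPKM in the other 23 flies. Cyp6w1 was at 61.9 RPKM there, against at least 139 RPKM elsewhere. Leaving this fly out gave 6 called members after 1X training, of which 3 were shared with the 4 above: Cyp6g2 was lost, and both Cyp12d1 copies and Cyp313a1 were gained, all 3 as higher. These 6 (8.45%) stand against 4.77% of all tested genes in that fit. Leaving out all 3 flies named above gave 5 called members (7.04%, against 335 of the 10547 genes tested), with Cyp18a1 and Cyp6v1 shared.

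**Figure D3:**
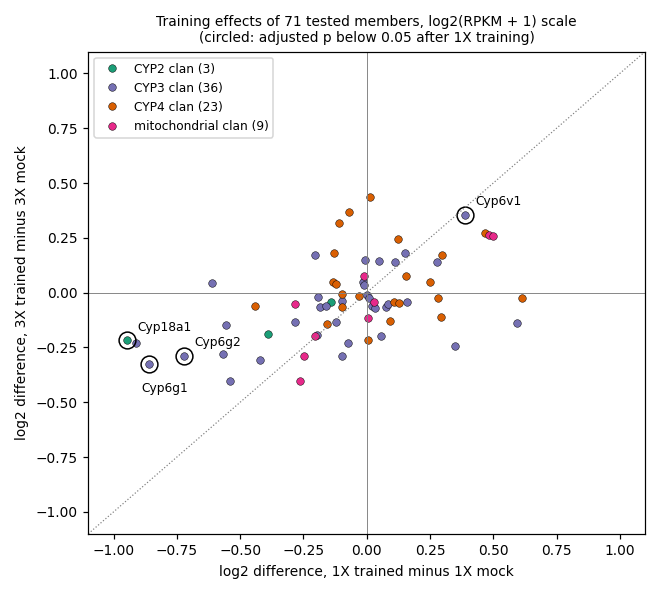
Log2 differences of the 71 tested members after 1X training (horizontal) and 3X training (vertical), on the log2(RPKM + 1) scale and coloured by clan. Circles mark the 4 members called after 1X training, and the dotted line marks equal change. The members called as lower lie above the dotted line, with 3X differences of -0.22 to -0.33 against 1X differences of -0.72 to -0.95.

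The second comparison asked the same after 3 sessions. None of the 71 members was called by limma, against 2.27% of all tested genes. The fit by voom on the recovered reads also called none, against 1.04% of all tested genes. An unadjusted p below 0.05 was seen for 11 members (15.5%), 5 higher and 6 lower, against 21.2% of all tested genes. The median change was -0.04, with 24 members above and 47 below 0 (66.2%), against a median of 0.01 and 47.1% below 0 over all tested genes. Leaving out the 3 flies named above gave 1 called member, Cyp12a4, as lower (1.41%, against 2.35% of all tested genes). Leaving out 3X trained replicate 6 alone gave 3, namely Cyp12a4, Cyp12e1 and Cyp6v1 (4.23%, against 5.8% of all tested genes). Leaving out 1X trained replicate 1 alone gave Cyp12a4 and Cyp6v1 (2.82%, against 5.48%). Neither share exceeds its background. That last fly enters only through the shared estimate of the spread.

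After 3X training Cyp18a1 ranged from 4.74 through 7.0 to 8.04 RPKM in mock and from 3.08 through 6.06 to 7.26 RPKM in trained heads. The groups overlapped widely, with a difference of -0.22 (SE 0.15, limma adjusted p = 0.428). Cyp6g1 changed by -0.33 (adjusted p = 0.351) and Cyp6g2 by -0.29 (adjusted p = 0.438). Cyp6v1 lay at 2.50 to 3.37 RPKM in 3X mock and 3.07 to 5.53 RPKM in 3X trained heads. Its change of 0.36 (SE 0.10, limma adjusted p = 0.0590) was close in size to that after 1X training but did not pass.

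Cyp12a4, a mitochondrial P450 known for resistance to lufenuron when overexpressed, ranged from 98.8 through 109.9 to 118 RPKM in 3X mock heads. In 3X trained heads it ranged from 76.0 through 86.9 to 111 RPKM. The log2 change was -0.29 (SE 0.10, limma adjusted p = 0.108), next to -0.25 (adjusted p = 0.159) after 1X training. Cyp4s3, named here because it alone among the tested members had 3X groups without overlap, ranged from 13 to 20.3 RPKM in 3X mock and from 20.8 to 30.4 RPKM in 3X trained heads. Over all tested genes 2.46% showed such a gap. Its change of 0.44 did not pass (limma adjusted p = 0.190).

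Whether the training effect differed between schedules was tested as the difference of both effects. No member was called, against 0.171% of all tested genes, and 4 members (5.63%) had an unadjusted p below 0.05, against 11.6% of all tested genes. Without the 3 flies named above none was called either, against 0.19% of all tested genes. The voom fit called none either, against 0.303% of all tested genes. For Cyp18a1 the 3X effect was 0.73 above the 1X effect (SE 0.21, limma adjusted p = 0.137). Leaving out 3X trained replicate 2, the lowest 3X trained fly for this gene, gave 0.87 (adjusted p = 0.0225). For Cyp6g1 the difference of the effects was 0.53 (adjusted p = 0.469), and for Cyp6g2 it was 0.43 (adjusted p = 0.589). The lower levels after 1X training were thus not shown to be particular to that schedule.

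The schedule itself was compared in flies that never met a female. The 3X schedule kept flies in the training tubes for longer than the 1X schedule, and the time of day at which either began is not given in the sources used here. The clock gene tim had 109.7 ± 9.85 RPKM after the 3X schedule against 14.6 ± 4.47 RPKM after the 1X schedule in mock flies (SD, n = 6 each), and time of day, time in the tube and time without handling cannot be told apart. Cyp313a1 was higher in 3X mock heads, and Cyp6a22 and Cyp4e2 were lower. These 3 of 71 members (4.23%) compare with 4.34% of all tested genes, 2% as higher and 2.34% as lower, so the share is that of the background. Leaving out the 3 flies named above gave 5 called members (7.04%, against 4.61% of all tested genes), the same 3 and both Cyp12d1 copies. The median change of the members was -0.07, with 45 of the 71 (63.4%) below 0, against 0.01 and 47.6% over all tested genes.

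Cyp313a1, the most abundant member, ranged from 238 through 409 to 439.9 RPKM in 1X mock and from 493 through 549 to 587 RPKM in 3X mock heads. Every 3X mock fly exceeded every 1X mock fly. The log2 change was 0.54 (SE 0.14, limma adjusted p = 0.0285), and the call was lost without the filter on low values (0.0506) and when any of 5 single flies, 1X mock replicates 3 and 4 and 3X mock replicates 2, 3 and 5, was left out (adjusted p 0.0555 to 0.0696). In trained heads the schedules overlapped, and Cyp313a1 was not called between them. It lay at 273 RPKM in 1X trained replicate 1, at 455 to 528 RPKM in the other 1X trained flies and at 489 to 604 RPKM in 3X trained flies. Apart from that replicate, 1X trained flies thus also exceeded every 1X mock fly. The gene overlaps Pde6, a phosphodiesterase gene. Of 6 photoreceptor markers, 3 were also higher in 3X mock heads, for example trp, a channel gene of the light response, with 597 against 448 RPKM. The part of these cells in the result was not tested.

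Cyp4e2 went the other way, from 92.0 through 96.3 to 118 RPKM in 1X mock to 55.3 through 63.0 to 82.9 RPKM in 3X mock heads. Here too the groups did not overlap, and the log2 change was -0.58 (SE 0.16, limma adjusted p = 0.0312). Leaving out single flies gave adjusted p from 0.00275 to 0.0857. Cyp6a22, the first gene of the large array, ranged from 19.8 through 24.4 to 28 RPKM in 1X mock and from 11.4 through 15.7 to 20.3 RPKM in 3X mock heads. A single 3X mock fly reached the 1X range. The change of -0.60 passed (SE 0.14, limma adjusted p = 0.0131).

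Cyp28d1 and Cyp9b2, both of the CYP3 clan and among the 6 highest members, also had mock groups without overlap. Cyp28d1 lay at 190.4 to 253 RPKM in 1X mock and 109 to 173 RPKM in 3X mock heads. With a log2 change of -0.58 it did not pass (SE 0.19, limma adjusted p = 0.0853). Cyp9b2 lay at 179.9 to 217 RPKM in 1X mock and 127 to 175 RPKM in 3X mock heads, and its change was -0.30 (limma adjusted p = 0.304). Together with Cyp313a1 and Cyp4e2, 4 members had mock groups that did not overlap, 3 of them lower. Over all tested genes 4.28% showed this, 2.47% as lower. Cyp9b2 passed only when the 2 mock groups were fitted alone (adjusted p = 0.0316). Cyp28d1 passed in that fit, under sample weights, and when 3X trained replicate 6 was left out.

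**Figure D4:**
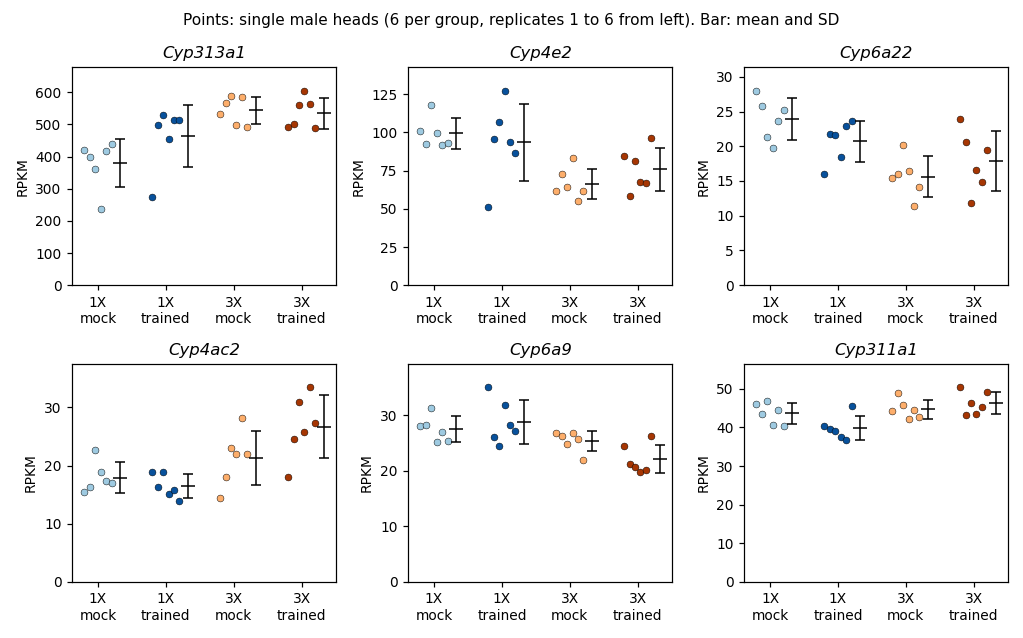
RPKM in single heads by group for the members called between schedules other than Cyp18a1. Points are flies in order of replicate number, bars are mean and SD of 6 flies. Cyp313a1 runs from 238 to 439.9 RPKM in 1X mock and from 493 to 587 RPKM in 3X mock heads, and Cyp4ac2 from 13.9 to 18.9 RPKM in 1X trained and 18 to 33.5 RPKM in 3X trained heads.

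Trained flies of both schedules were compared in the same way. This comparison shares its groups with those above, so its values stand beside them and are not separate evidence. In 3X trained heads Cyp18a1, Cyp4ac2 and Cyp311a1 were higher than in 1X trained heads, and Cyp6a9 was lower. These 4 of 71 members (5.63%) stand against 11.1% of all tested genes, 6.42% as higher and 4.69% as lower. Leaving out the 3 flies named above gave 9 called members (12.7%, against 11.5% of all tested genes), among them all 4. Leaving out 1X trained replicate 1 alone also gave 9, against 15.5% of all tested genes, with both Cyp12d1 copies, Cyp4ac1, Cyp4ae1 and Cyp4e2 as the others.

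For Cyp18a1 the trained groups overlapped only through the lowest 3X fly at 3.08 RPKM and the highest 1X fly at 3.69 RPKM, and the log2 change was 0.90 (SE 0.15, limma adjusted p = 0.000415). Cyp4ac2, which lies with Cyp4ac1 and Cyp4ac3 inside the locus of tkv, a receptor gene, ranged from 13.9 through 16.0 to 18.9 RPKM in 1X trained heads. In 3X trained heads it ranged from 18 through 26.6 to 33.5 RPKM, with 1 fly inside the 1X range. The log2 change was 0.65 (SE 0.14, limma adjusted p = 0.00361). Its neighbour Cyp4ac1 changed by 0.41 (adjusted p = 0.0967), and by 0.57 (adjusted p = 0.00303) without 1X trained replicate 1, which stood at 127 RPKM against 60.5 to 67.9 RPKM in the other 1X trained flies.

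Cyp6a9 ranged from 24.4 through 27.7 to 35.1 RPKM in 1X trained and from 19.8 through 21.0 to 26.2 RPKM in 3X trained heads. It overlaps Cyp6a19, and the log2 change was -0.36 (SE 0.08, limma adjusted p = 0.00483). Cyp311a1, the steadiest of the tested members, ranged from 36.7 through 39.3 to 45.6 RPKM in 1X trained heads. In 3X trained heads it ranged from 43.3 through 45.8 to 50.4 RPKM. A change of 0.22 was called here (SE 0.05, limma adjusted p = 0.0107), the smallest of all those called, and it was not called when the 2 trained groups were fitted alone (adjusted p = 0.0520). None of the 71 tested members had trained groups without overlap, against 4.28% of all tested genes. Cyp312a1, untested because of its low level and picked after its values were seen, had such groups. It lay at 0.581 to 1.21 RPKM in 1X trained and 0.112 to 0.294 RPKM in 3X trained heads.

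Beyond the groups, members varied between flies of like treatment more than most genes did. The median SD within groups was 0.26 on the log2(RPKM + 1) scale for the 71 tested members and 0.12 for all tested genes, and 65 of the 71 lay above the latter. The SD ran from 0.09 for Cyp311a1 to 1.57 for Cyp6a17. In 8 members (11.3%) the sorted values of the 24 flies held a step of at least 0.5 log2 with at least 3 flies on each side, against 1.32% of all tested genes. This measure was chosen after the values were seen and is given as a description. With a step of at least 1 log2, 2 members (2.82%) remained, against 0.228% of all tested genes.

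Cyp6a17, known for a role in the temperature preference of flies, took 3 separate levels. It lay at 2.16 to 4.87 RPKM in 8 flies, at 26.6 to 38.3 RPKM in 13 flies and at 60.7 to 74.7 RPKM in 3 flies, with none between. Every group held flies of at least 2 of these levels. Of the 8 flies at the lowest level, 3 were 1X flies (1 mock, 2 trained) and 5 were 3X flies (2 mock, 3 trained). Cyp6a23, the next gene of the array and a close relative, ran opposite to it. In the same 3 sets of flies Cyp6a23 lay at 48.6 to 101 RPKM, at 34.4 to 58.6 RPKM and at 11.2 to 17.9 RPKM. Whether reads were exchanged between these relatives was not tested.

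Cyp6a20, known for its effect on aggression between males, also took separate levels. It lay at 10.1 to 17.1 RPKM in 8 flies and at 26.7 to 59.3 RPKM in the other 16. In the flies with the lowest Cyp6a17 it lay at 26.7 to 40.6 RPKM, and in those with the highest at 41.3 to 58.9 RPKM. In the other 13 flies it took values from 10.1 to 59.3 RPKM. At the far end of the same array Cyp317a1 stayed between 12.2 and 15.8 RPKM in all 24 flies, so the steps were not a feature of every gene in the array.

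**Figure D5:**
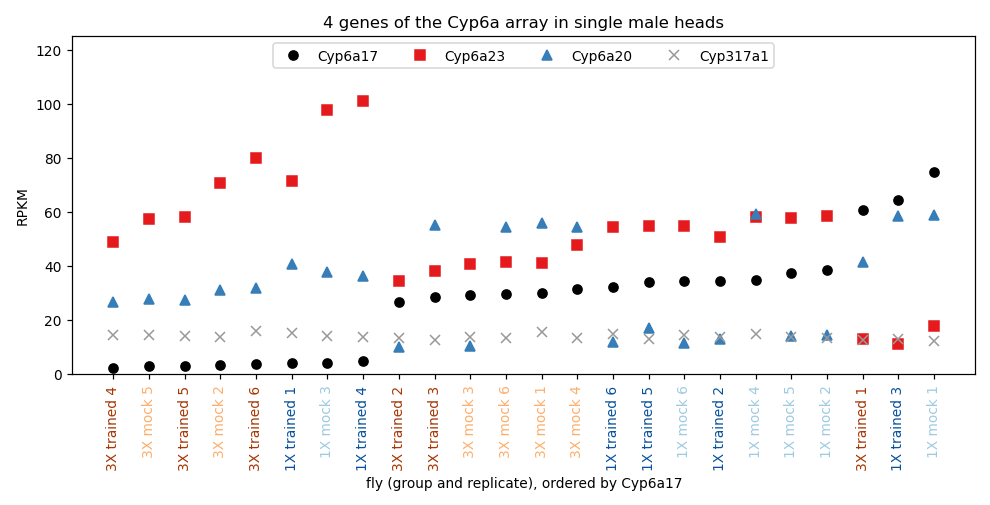
RPKM of 4 genes of the 2R array in each of the 24 heads, ordered by Cyp6a17 and with fly names coloured by group. Cyp6a17 takes 3 levels, up to 4.87, from 26.6 to 38.3 and from 60.7 RPKM, while Cyp6a23 falls to 11.2 to 17.9 RPKM in the 3 flies with the most Cyp6a17 and Cyp317a1 stays between 12.2 and 15.8 RPKM.

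Other steps crossed the groups in the same way. Cyp309a2 on 2L lay at 2.09 to 9.88 RPKM in 9 flies and at 25.8 to 78.3 RPKM in 15, and each group held 2 or 3 of the low flies. Cyp6a2, an enzyme overexpressed in some DDT-resistant strains, lay at 10.6 to 23.3 RPKM in 11 flies and at 42.6 to 78.5 RPKM in 13. Cyp4p2 lay at 0.251 to 0.596 RPKM in 8 flies and at 1.56 to 7.32 RPKM in 16. Cyp6a8, also overexpressed in resistant strains, ranged from 16.3 to 266 RPKM. The step of Cyp12d1-d, unlike these, set 5 of the 6 1X trained flies apart from all others. For such genes the training comparisons were imprecise: the 1X change of Cyp6a17 had an SE of 0.85 on the log2 scale, against 0.05 for Cyp311a1.

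Other genes of P450 function were described from fixed lists. Among 5 electron donors, all tested, Cpr, the reductase that feeds the P450s of the endoplasmic reticulum, rose from 57.6 to 79.8 RPKM after 1X training (log2 change 0.46, limma adjusted p = 0.00669). After 3X training it was not called (0.05, adjusted p = 0.828). Cyt-b5, an alternative electron donor, was called as higher after 3X training, with 464 against 351 RPKM (0.40, limma adjusted p = 0.0400). The mitochondrial donors dare, Fdx1 and Fdx2 were called in none of the comparisons.

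Of 6 regulators of detoxification genes, 5 were tested and 1 was called after 1X training. Keap1, which holds the activator cnc in check, rose from 7.01 to 9.49 RPKM (log2 change 0.38, limma adjusted p = 0.0035), and cnc itself was at 26.0 and 28 RPKM (adjusted p = 0.287). In trained flies Keap1 was lower after 3X than after 1X training (-0.31, adjusted p = 0.00733). The P450s of ecdysone synthesis that carry other symbols were low. Of 5 matched, dib at 2.97 to 3.52 RPKM and spok at 0.854 to 1.09 RPKM (group means) were tested, and neither was called. Of 12 listed genes of hydrocarbon synthesis, 10 were matched and 5 tested. The only call among them was ACC, acetyl-CoA carboxylase, lower in 3X mock than in 1X mock heads at 52.6 against 79.7 RPKM (-0.59, limma adjusted p = 0.0198).

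Of the fat body markers, 1 changed beside the 1X result. AkhR, the receptor for adipokinetic hormone, fell from 35.1 to 14.9 RPKM after 1X training (log2 change -1.20, limma adjusted p = 0.000302), the only call among the 4 fat body markers tested. The summed level of the fat body list ran from 4909 to 10036 RPKM in 1X mock and from 592 to 7682 RPKM in 1X trained heads. Lsp2, a storage protein, ran from 46.8 to 6979 RPKM in 1X trained heads and did not pass (limma adjusted p = 0.210). Nor did apolpp (-0.26, adjusted p = 0.0685) or plin1 (-0.06, adjusted p = 0.927), whose mean was 470 RPKM in both 1X groups. In trained flies AkhR was also 0.64 higher after 3X than after 1X training (limma adjusted p = 0.0166), as was apolpp, a lipoprotein gene, by 0.30 (adjusted p = 0.0183). Lsp2 (0.06, adjusted p = 0.970) and plin1 (-0.12, adjusted p = 0.804) were not called there. The part of fat body cells in the changes of Cyp18a1, Cyp6g1 and Cyp6g2 was not tested.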

How the data were processed

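Poly(A) RNA of 24 single heads was made into non-stranded SMART-Seq v4 libraries. The authors deposited RPKM values per gene and fly, which per the labels' processing notes came from bcl2fastq 2.18, TopHat2 2.0.13 and edgeR 3.18.1. The study's methods name dm6 in one section and dm3 with cuffdiff in another. Groups and replicate numbers come from the sample labels, each replicate being 1 fly.

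Values were analysed as log2(RPKM + 1), with a filter of at least 1 RPKM in at least 6 flies. Group means of all 24 flies were fitted with limma 3.58.1 (trend) in R 4.3.3, two-sided, with Benjamini-Hochberg adjustment over 10547 genes and a threshold of 0.05. The fit was also run on simulated independent normal values. Those hold no outlying flies or steps, so that run shows nothing about their effect here. Of 16992 genes above 0, 16284 gave whole reads, within 0.02, with the annotated exonic length. For the other 708 a length was fitted so that they did, which is no check of them. An alternative was voom on these reads, scaled by the total of recovered reads per fly. Read numbers cover counting error only, since there were no molecular identifiers. A symbol was found for 17253 of 17559 IDs. Cyp6a21 was not analysed here, nor were phm, FASN1, FASN3 and para of the lists.

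Named members were those called in any comparison, the 12 most abundant, those with known roles and the 3 most variable. Cyp6d2, Cyp304a1, Cyp6a23, Cyp317a1, Cyp4p2, Cyp4s3 and Cyp312a1 were added after their values were seen. Clans follow the family number. The members and lists were chosen with earlier results of these data known. Alternatives were another pseudocount, no filter, median-ratio and quantile scaling, sample weights, a replicate block, 2 groups alone, and leaving out each fly. Tables and plots were made with pandas 2.3.3, numpy 2.4.6 and matplotlib 3.10.9 under Python 3.11.15.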

Additional observations from a re-analysis of the deposited data

Results flagged for a closer look

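For the 33 named members, each group of 6 flies was searched for a fly whose gap to its nearest neighbour exceeded, as a share of the group's range, Dixon's 95% critical value. Of 132 groups, 15 held such a fly. The nominal rate of 1 in 20, or 6.6, holds for independent groups with normal values. Here the members share the same flies, some overlap, and some were chosen by their calls or spread. The count is therefore a description and no test of an excess. The fly 1X trained replicate 1 gave 5 of them. It was low in Cyp12a4 (64.8 RPKM, nearest fly 91.9), Cyp313a1 (273 RPKM, nearest 455) and Cyp6w1 (61.9 RPKM, nearest 224). The same fly was high in Cyp4ac1 (127 RPKM, nearest 67.9) and Cyp4p1 (209.6 RPKM, nearest 139).

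In 1X trained replicate 4, Cyp4g1 stood at 4.34 RPKM with the nearest fly at 0.302, and Cyp18a1 at 3.69 RPKM with the nearest at 2.61. In 1X trained replicate 5, Cyp6g1 stood at 447 RPKM (nearest 305) and Cyp6g2 at 10.9 RPKM (nearest 7.65). These genes are neighbours and overlap by annotation. In 1X mock replicate 3, Cyp4ac1 was at 111 RPKM (nearest 80.1) and Cyp4e2 at 118 RPKM (nearest 101).

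The remaining 4 came from separate flies. Cyp6a8 was at 183 RPKM in 3X mock replicate 4 (nearest 70.2), and Cyp28d1 at 238 RPKM in 3X trained replicate 6 (nearest 138.5). Cyp4p1 was at 131 RPKM in 3X trained replicate 3 (nearest 107). Cyp4g15 was low at 57.8 RPKM in 3X trained replicate 4 (nearest 76.9).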

How the results depend on the processing

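For 27 log2 changes given above, 888 values under alternatives were computed. None reversed its sign, 826 stayed on the same side of the threshold, 36 lost and 26 gained the call. Shares of all tested genes called in the same setting are given beside each count. The number of members called after 1X training was 4 (5.63%, against 4.94%), and 8 with sample weights (11.3%, against 8.48%). With the 2 groups alone it was 6 (8.45%, against 4.43%), and without a filter 3 (3.61%, against 2.03%). After 3X training it was 0 (against 2.27%). It was 1 (1.41%) with quantile normalization (against 2.61%), with sample weights (against 3.62%) and without the 3 flies (against 2.35%). These flies were 3X mock replicate 6 and 1X trained replicates 1 and 4, a setting chosen after seeing the data. Between mock groups it was 3 (4.23%, against 4.34%), but 1 without a filter (1.2%, against 2.3%). With the 2 groups alone it was 7 (9.86%, against 6.33%) and without the 3 flies 5 (7.04%, against 4.61%). Between trained groups it was 4 (5.63%, against 11.1%), but 8 with sample weights (11.3%, against 14.3%) and 9 without the 3 flies (12.7%, against 11.5%). Leaving out each fly gave 2 to 6 after 1X training (all tested genes 2.86% to 5.76%) and 0 to 3 after 3X training (0.247% to 5.8%). It gave 0 to 1 for the difference of the effects (0.0284% to 1.01%). Between mock groups it gave 1 to 5 (3.13% to 5.7%) and between trained groups 4 to 9 (8.81% to 15.5%). The share of all tested genes thus moved with the setting as well. The cause was not tested. Under voom, which scaled by total recovered reads, the median change of the members after 1X training was 0.05, with 0.07 over all tested genes. In the main fit these medians were -0.02 and 0.00, so members and all genes moved together.

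Replicate numbers did not pair the flies: same-numbered flies had a median correlation of deviations of -0.007 and others 0.005, with 4 of 36 same-numbered pairs above 0.1. With a replicate block the counts were 3 (4.23%, against 3.94% of all tested genes) after 1X training and 0 (against 1.88%) after 3X training. They were 0 (against 0.0759%) for the difference of the effects and 3 (4.23%, against 3.89%) between mock groups. Between trained groups the count was 5 (7.04%, against 10.5%). In that fit Cyp6g2 lost its call after 1X training (limma adjusted p = 0.0598). Of 13 members with a mean under 1 RPKM, 6 had no reads in at least 1 fly and 7 had reads in all 24.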
